A study of Homo sapiens with 9 samples.

Results

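This account describes 55 genes of mitosis and chromosome segregation in a human breast cancer cell line whose UGDH gene was knocked down. The genes were taken by symbol from a list of cyclins, mitotic kinases, checkpoint proteins, kinesins, kinetochore and condensin subunits and their partners. All 55 were found among the 23710 entries of the count table, and all 55 passed the filter on low counts, which left 12546 genes. Each was counted on between 170 and 19236 reads in a library.

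Messenger RNA was sequenced from the human triple-negative breast cancer line MDA-MB-231 after transduction with lentivirus from the pGIPZ hairpin vector. Cells of the shUGDH-1 group carried 1 hairpin against UGDH, cells of the shUGDH-2 group carried another hairpin against the same gene, and cells of the shNT group carried a non-targeting hairpin, with 3 libraries each. All groups shared the same line, vector and medium (DMEM with 5% FBS), and there were no untransduced cells. The labels call the cultures biological replicates but do not state whether each was transduced separately, and p-values therefore rest on library-to-library spread that may be technical. UGDH encodes UDP-glucose 6-dehydrogenase, which makes the UDP-glucuronate that goes into hyaluronan and other glycosaminoglycans.

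Cells enter mitosis when CDK1, bound to cyclin A or cyclin B, is switched on by CDC25 phosphatases, and Aurora and Polo-like kinases then build the spindle. Kinetochores tie chromosomes to spindle microtubules, condensins compact the chromosomes, and the spindle checkpoint holds back the anaphase-promoting complex until every kinetochore is attached. Most of these genes are transcribed mainly in G2 and mitosis, under FOXM1 and the MYB-MuvB complex, so their RNA is widely read as a sign of proliferation. In bulk RNA a smaller share of cells in G2 or mitosis and less RNA per such cell cannot be told apart.

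The promoters of many of these genes hold 1 or both of a pair of short motifs, and 5 are shown as the stretch from 150 bases before the annotated start to the base before it, because CCNA2 and TOP2A fell with both hairpins, MKI67 moved apart between the hairpins, and PLK1 and CDC20 did not pass in any comparison. Of the 5, the CCNA2 and TOP2A stretches hold CCAAT and no TTTGAA. For TOP2A, however, TTTGAA at -194 and TTCAAA at -151 begin upstream of the stretch shown. Of the other genes called lower with both hairpins, MAD2L1 and NCAPG hold TTTGAA, at 25 and -35, and CENPE had no match. The 5 were chosen by their results, so their letters are no test of a link to the changes. The sequences are from RefSeq (GRCh38.p14), on the strand of the gene, and capitals mark the letters TTTGAA or TTCAAA (the core of the CHR, the element bound by the MuvB complex) and CCAAT or ATTGG (the CCAAT box, bound by NF-Y).
CCNA2, chr4:121823884-121824033, minus strand: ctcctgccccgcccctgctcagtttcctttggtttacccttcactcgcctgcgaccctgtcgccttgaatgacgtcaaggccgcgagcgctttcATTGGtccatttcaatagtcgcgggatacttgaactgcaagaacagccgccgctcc
TOP2A, chr17:40417897-40418046, minus strand: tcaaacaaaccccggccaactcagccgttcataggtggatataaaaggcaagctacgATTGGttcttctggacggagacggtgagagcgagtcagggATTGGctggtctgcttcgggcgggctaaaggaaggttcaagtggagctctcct
MKI67, chr10:128126424-128126573, minus strand: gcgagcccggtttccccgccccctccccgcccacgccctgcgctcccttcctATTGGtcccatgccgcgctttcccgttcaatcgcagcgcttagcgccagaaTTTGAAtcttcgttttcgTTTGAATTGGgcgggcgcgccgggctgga
PLK1, chr16:23678739-23678888, plus strand: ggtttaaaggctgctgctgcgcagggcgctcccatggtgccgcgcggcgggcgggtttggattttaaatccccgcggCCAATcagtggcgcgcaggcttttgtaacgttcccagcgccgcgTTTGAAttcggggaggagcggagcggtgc
CDC20, chr1:43358831-43358980, plus strand: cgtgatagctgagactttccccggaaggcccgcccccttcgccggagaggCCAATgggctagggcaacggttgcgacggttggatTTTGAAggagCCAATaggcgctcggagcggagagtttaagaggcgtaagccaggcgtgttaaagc

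In windows from 250 bases before to 50 bases after the start, TTTGAA in either orientation was present for 35 of the 46 listed genes that have a RefSeq entry (76.1%), against 18.2% of 27305 human genes and 7.69% of the 39 replication genes with an entry. CCAAT in either orientation was present for 36 of the 46 (78.3%), against 39.7% of all genes and 56.4% of the replication genes. Both motifs were present for 27 of the 46 (58.7%), against 7.26% of all genes, and the 2 motifs can share bases, as in the MKI67 window. The TTTGAA matches lay close to the start, at a median position of -29, and the CCAAT matches further upstream, at a median position of -78.5. BUB3, AURKA, FOXM1, TTK, TPX2, BIRC5, UBE2C, CDCA2 and RACGAP1 had no entry. A match describes the letters in the window and is not a measured binding site. Only these exact letters were searched, so a gene without a match may hold another form of either motif.

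UGDH itself was counted in every library. It stood at 7.62, 7.29 and 8.03 CPM (counts-per-million, scaled by edgeR's TMM factors) in shUGDH-1 libraries, 8.08, 6.62 and 6.78 CPM in shUGDH-2 libraries and 53.0, 55.6 and 50.2 CPM in shNT libraries. It fell by 85.6% with shUGDH-1 (log2 fold change -2.80 ± 0.085 SE, edgeR adjusted p = 3.95e-36) and fell by 86.5% with shUGDH-2 (-2.89 ± 0.084, edgeR adjusted p = 1.27e-36). The libraries of the 2 UGDH hairpins overlapped, and their direct comparison did not pass (shUGDH-2 over shUGDH-1 -0.09, 95% interval -0.34 to 0.16, edgeR adjusted p = 0.74).

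The libraries held 9249738 to 13328002 counts, and 1 of them stood apart over all tested genes. Differences between shNT replicate 1 and the other shNT libraries were 1.86 and 1.90 times the variance of counting, against 1.19 to 1.47 for every other pair within a group. Over the 55 mitotic genes these 2 pairs gave 2.40 and 4.08 times counting variance, against 1.24 to 2.54 for every other pair. The 2.54 was of shUGDH-2 replicates 1 and 2, so over these genes only 1 of the 2 pairs stood apart. Results that rest on shNT replicate 1 are named where they occur. Of the line's markers, VIM, CD44, LDHB, MSN and AXL averaged 404 to 2317 CPM, and ESR1, PGR, FOXA1, PTPRC, CD3E, PDGFRA, DCN, LUM and FAP had at most 3 reads in any library. The summed level of 9 luminal genes was 1571 to 1601 CPM in shUGDH-1, 1348 to 1390 CPM in shUGDH-2 and 1208 to 1224 CPM in shNT libraries, carried by KRT8, KRT18 and KRT19. The summed level of 12 histone genes was 122 to 129 CPM in shUGDH-1, 91.9 to 97.1 CPM in shUGDH-2 and 99.3 to 112 CPM in shNT libraries, and the part of either in the results below was not tested.

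Mitotic transcripts as a group moved little. They made up 1.184 to 1.196% of all counts in shUGDH-1, 1.15 to 1.169% in shUGDH-2 and 1.197 to 1.212% in shNT libraries. Calls were made at an edgeR adjusted p under 0.05. With shUGDH-1 against shNT, 4 of the 55 were higher and 7 lower, where 10.5% of all tested genes were called higher and 10.3% lower. With shUGDH-2 against shNT, 1 was higher and 11 were lower (20% of the 55), where 8.04% of all tested genes were called higher and 6.81% lower. Of tested genes within the range of mean CPM of the 55, 13.1% were called higher and 13.8% lower with shUGDH-1. With shUGDH-2 these shares were 10.2% and 9.66%. Libraries did not overlap between shUGDH-1 and shNT for 8 genes that lay higher and 9 that lay lower (17.3% and 16.8% of all tested genes). For shUGDH-2 and shNT they did not overlap for 2 genes that lay higher and 16 lower (14.7% and 13.9% of all tested genes). The 2 comparisons share their shNT libraries and are not independent of each other.

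Effects were small in all cases. The median log2 fold change of the 55 was -0.004 with shUGDH-1, against -0.0026 over all tested genes, and -0.046 with shUGDH-2, against -0.0059. Below 0 lay 29 of the 55 (52.7%) with shUGDH-1, against 50.8% of all tested genes. With shUGDH-2 41 of the 55 (74.5%) lay below 0, against 51.9%. The shUGDH-2 median was -0.017 after a trend of fold change with GC content, transcript length and expression over all genes was removed. For 51 of the 55 genes (92.7%) in each comparison with shNT, the 95% interval of the change lay within 1.2-fold either way. With shUGDH-1 and shUGDH-2 the share was 52.7% and 56.1% of all tested genes. It was 78.3% and 83.3% of tested genes within the range of mean CPM of the 55. Those of the 55 outside that band were CCNA2, MAD2L1, CENPE and CENPA with shUGDH-1, and CCNA2, MAD2L1, BUB3 and NUF2 with shUGDH-2. CENPA, the centromeric histone H3 variant, is outside because of its width (log2 fold change 0.10, 95% interval -0.09 to 0.29), not because of a call.

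**Figure D1:**
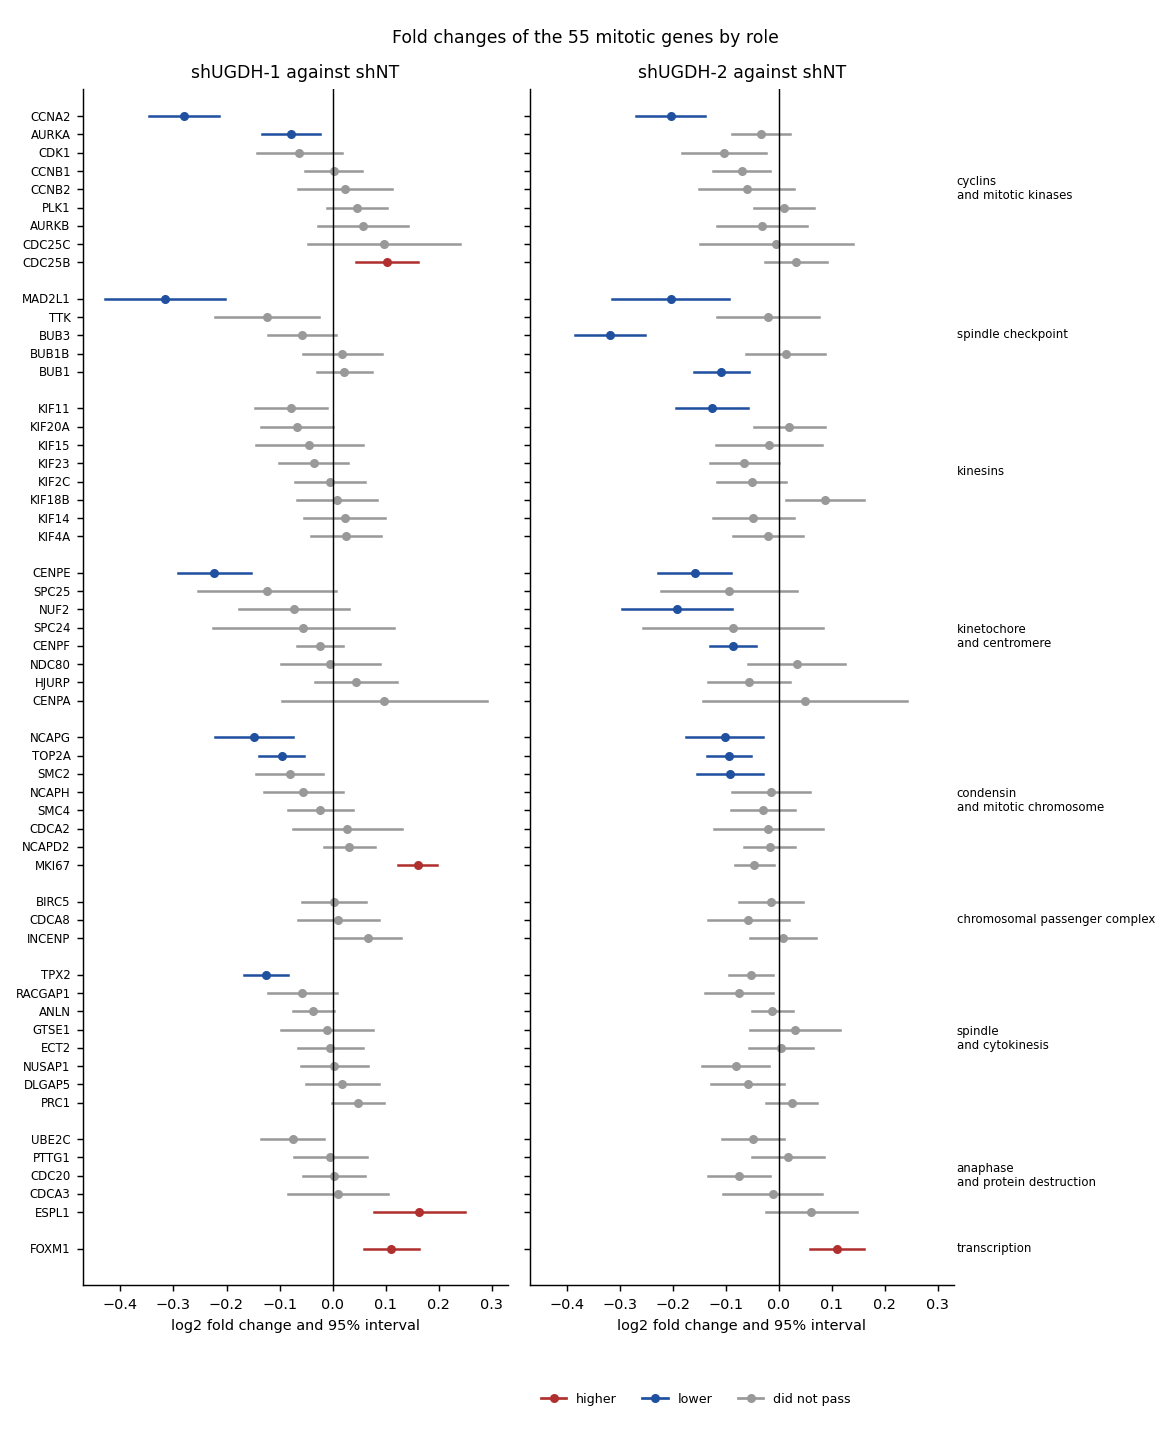
Log2 fold change of each of the 55 mitotic genes (point) with its 95% interval (line), grouped by role, for shUGDH-1 against shNT on the left and shUGDH-2 against shNT on the right; red is higher, blue lower and grey did not pass at an edgeR adjusted p under 0.05. Most intervals cross 0, and the changes that passed lie between -0.32 and 0.16.

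Among the cyclins and mitotic kinases, cyclin A2 was the clearest change. CCNA2, whose protein activates CDK2 in S phase and CDK1 in G2, stood at 172, 164 and 158 CPM in shUGDH-1 libraries, 173, 166 and 182 CPM in shUGDH-2 libraries and 203, 197 and 199.8 CPM in shNT libraries. Every library of either UGDH hairpin lay below every shNT library. It fell with shUGDH-1 (log2 fold change -0.28 ± 0.033, edgeR adjusted p = 8.01e-10) and with shUGDH-2 (-0.20 ± 0.033, edgeR adjusted p = 3.44e-06). In the same role group, 1 of 9 genes was higher and 2 lower with shUGDH-1, where 10.5% of all tested genes were called higher and 10.3% lower. With shUGDH-2 none was higher and 1 lower, where 8.04% of all tested genes were called higher and 6.81% lower.

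The B-type cyclins and their kinase did not pass with all libraries. CCNB1, the main mitotic cyclin, stood at 265, 261 and 261 CPM in shUGDH-1 libraries, 244, 252 and 253 CPM in shUGDH-2 libraries and 257, 269 and 260.4 CPM in shNT libraries. All shUGDH-2 values lay below all others but did not pass (-0.07 ± 0.027, edgeR adjusted p = 0.0681), and the shUGDH-1 values lay within the shNT range (log2 fold change 0.0018 ± 0.027). CDK1, the kinase that drives mitotic entry, stood at 107, 104 and 98.4 CPM in shUGDH-1 libraries, 97.5, 101 and 102 CPM in shUGDH-2 libraries and 111, 103 and 109 CPM in shNT libraries. The shUGDH-1 and shNT libraries overlapped and the shUGDH-2 libraries lay just below shNT, with log2 fold changes of -0.06 ± 0.040 and -0.10 ± 0.040 (edgeR adjusted p = 0.287 with shUGDH-1 and 0.068 with shUGDH-2). With shUGDH-2, CDK1 passed as lower without shNT replicate 2 (-0.13), and CCNB1 did when libraries were scaled by their totals alone (-0.07).

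PLK1, the Polo-like kinase of mitotic entry and spindle assembly, stood at 257, 257 and 261 CPM in shUGDH-1 libraries, 239.7, 253 and 262 CPM in shUGDH-2 libraries and 245, 255 and 251 CPM in shNT libraries. The shUGDH-1 libraries lay just above shNT and the shUGDH-2 libraries spanned the shNT range, and neither comparison passed (edgeR adjusted p = 0.269 and 0.885). AURKA, the Aurora kinase of the spindle poles, stood at 254, 265 and 259 CPM in shUGDH-1 libraries, 266, 259.9 and 277 CPM in shUGDH-2 libraries and 267, 276 and 279 CPM in shNT libraries. The shUGDH-1 libraries all lay below shNT and the shUGDH-2 libraries overlapped it. AURKA passed with shUGDH-1 (-0.08 ± 0.028, edgeR adjusted p = 0.0338), though not when shNT replicate 2 or 3 or shUGDH-1 replicate 1 or 3 was left out (-0.06 to -0.08), nor with DESeq2.

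CDC25B, a phosphatase that activates CDK1, went the other way. It stood at 223, 221 and 223 CPM in shUGDH-1 libraries, 216, 208 and 211 CPM in shUGDH-2 libraries and 199.5, 211 and 211 CPM in shNT libraries. The shUGDH-1 libraries lay above all others. The rise with shUGDH-1 (0.10 ± 0.029, edgeR adjusted p = 0.00673) did not pass without shNT replicate 1, the lowest of the 9 (0.08). CCNB2, AURKB and CDC25C, a second B-type cyclin, the passenger complex kinase and another CDC25 phosphatase, had log2 fold changes of -0.06 to 0.10 over both comparisons and did not pass.

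Of 5 spindle checkpoint genes, 1 was lower and none higher with shUGDH-1, and 3 were lower and none higher with shUGDH-2, where 10.3% and 6.81% of all tested genes were called lower. MAD2L1, the checkpoint protein that sequesters CDC20, stood at 66.3, 63.8 and 59.3 CPM in shUGDH-1 libraries, 64.7, 71.0 and 69.7 CPM in shUGDH-2 libraries and 87.1, 70.9 and 78.2 CPM in shNT libraries. The shUGDH-1 libraries lay below all shNT libraries, while the highest shUGDH-2 library just reached the lowest shNT library. MAD2L1 fell with shUGDH-1 (-0.32 ± 0.056, edgeR adjusted p = 4.03e-05). Its fall with shUGDH-2 (-0.20 ± 0.055, edgeR adjusted p = 0.00813) did not pass without shNT replicate 1 (-0.12) or without shUGDH-2 replicate 1 (-0.16).

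BUB3, which brings BUB1 and BUBR1 to the kinetochore, fell with shUGDH-2 and did not pass with shUGDH-1. It stood at 217, 213 and 211 CPM in shUGDH-1 libraries, 179, 175 and 181 CPM in shUGDH-2 libraries and 238, 209 and 219 CPM in shNT libraries. All shUGDH-2 libraries lay below all 6 others, and the shUGDH-1 libraries lay within the shNT range. The fold changes were -0.06 ± 0.032 with shUGDH-1 (edgeR adjusted p = 0.219) and -0.32 ± 0.033 with shUGDH-2 (edgeR adjusted p = 3.3e-11). Without shNT replicate 2, BUB3 also passed as lower with shUGDH-1 (-0.096).

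BUB1, the checkpoint kinase, was also lowest with shUGDH-2. It stood at 336, 339 and 321 CPM in shUGDH-1 libraries, 302, 295 and 313 CPM in shUGDH-2 libraries and 322, 329 and 331 CPM in shNT libraries. Every shUGDH-2 library was below every other library. It fell with shUGDH-2 (-0.11 ± 0.026, edgeR adjusted p = 0.00185) and did not pass with shUGDH-1 (0.02 ± 0.026, edgeR adjusted p = 0.608). BUB1B, which encodes BUBR1, and TTK, the kinase also called MPS1, did not pass in either comparison, and BUB1B was level at 110.5 ± 2.32, 110.01 ± 1.16 and 109 ± 0.318 CPM in shUGDH-1, shUGDH-2 and shNT libraries (SD, n = 3 each).

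**Figure D2:**
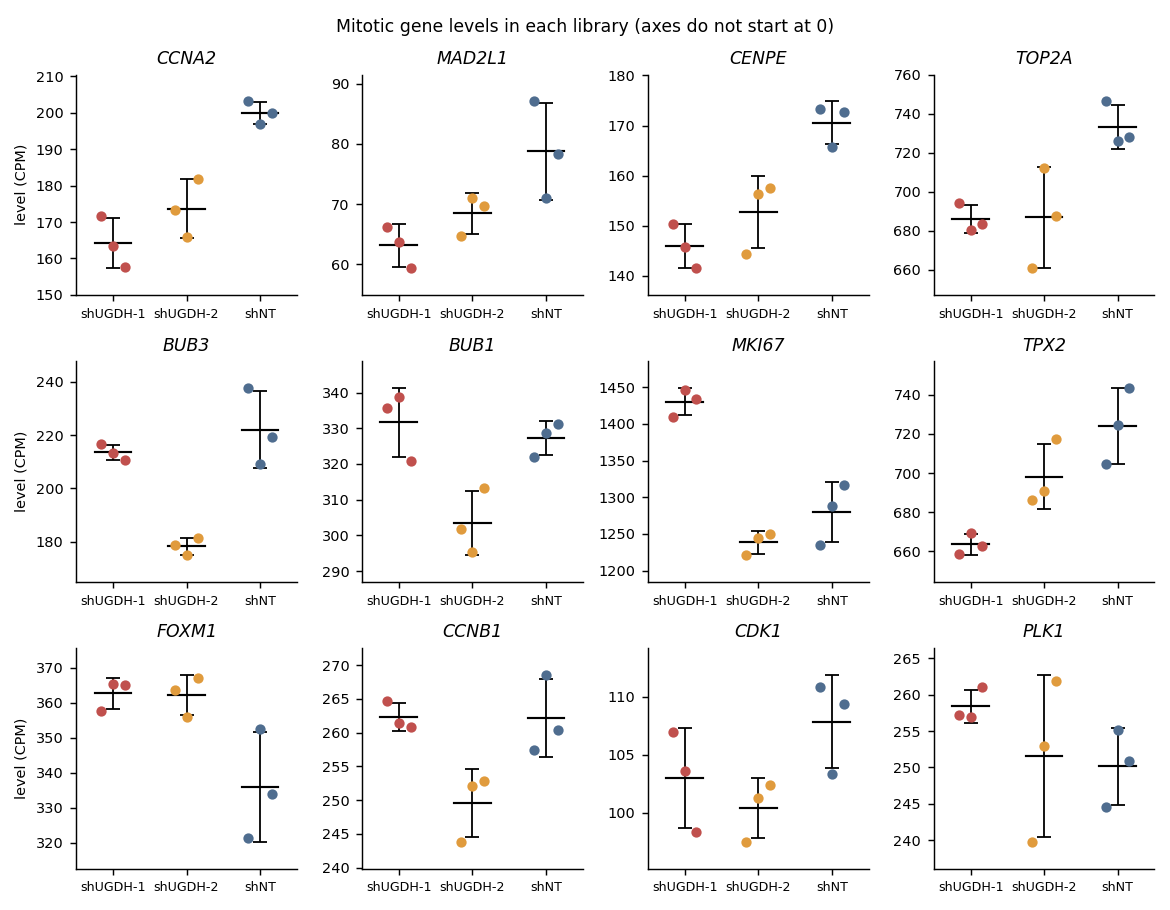
Level in CPM of 12 mitotic genes in each of the 9 libraries, with the mean and SD of 3 libraries per group as bars; each panel has its own axis, which does not start at 0. CCNA2, CENPE and TOP2A lie lower with both UGDH hairpins, BUB3 and BUB1 lie lower with shUGDH-2, and MKI67 lies higher with shUGDH-1.

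Kinesins are motors that build the spindle and move chromosomes along it, and the 8 of this role group were nearly level. CENPE and KIF20B, kinesins listed in other groups, fell with both hairpins and are given below. With shUGDH-1 none of the 8 in this group passed, where 10.5% of all tested genes were called higher and 10.3% lower. With shUGDH-2 only KIF11 did, where 8.04% were called higher and 6.81% lower. KIF11, also called Eg5, which pushes the spindle poles apart, stood at 188, 190.3 and 172 CPM in shUGDH-1 libraries, 179.6, 174 and 181 CPM in shUGDH-2 libraries and 206, 188 and 189.6 CPM in shNT libraries. The shUGDH-2 libraries lay below all shNT libraries and the shUGDH-1 libraries overlapped them. The fall with shUGDH-2 (-0.13 ± 0.034, edgeR adjusted p = 0.0061) did not pass without shNT replicate 1 (-0.08) or shUGDH-2 replicate 2 (-0.11). With shUGDH-1, KIF11 passed as lower without shNT replicate 2 (-0.10). KIF20A, KIF23, KIF2C, KIF4A, KIF14, KIF15 and KIF18B had log2 fold changes of -0.07 to 0.09 over both comparisons. KIF4A shares near-identical sequence with KIF4B, so its counts are uncertain.

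At the kinetochore, the motor protein CENPE was lower with either hairpin. CENPE, the kinesin that carries chromosomes to the spindle equator, stood at 150.4, 146 and 142 CPM in shUGDH-1 libraries, 144, 156 and 157 CPM in shUGDH-2 libraries and 173, 166 and 173 CPM in shNT libraries. No library of a UGDH hairpin reached the lowest shNT library. CENPE fell with shUGDH-1 (-0.22 ± 0.035, edgeR adjusted p = 9.2e-07) and with shUGDH-2 (-0.16 ± 0.034, edgeR adjusted p = 0.000516). Of the 8 genes of this group, CENPE alone fell with shUGDH-1 (12.5%, where 10.3% of all tested genes were called lower). With shUGDH-2, 3 fell, where 6.81% of all tested genes were called lower, and none rose with either hairpin.

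The other 2 that fell with shUGDH-2 were NUF2 and CENPF. NUF2, a subunit of the NDC80 complex that grips microtubules, stood at 60.5, 58.4 and 67.4 CPM in shUGDH-1 libraries, 54.0, 59.4 and 56.6 CPM in shUGDH-2 libraries and 67.9, 61.9 and 64.4 CPM in shNT libraries. CENPF, a large outer kinetochore protein, stood at 588, 576 and 582 CPM in shUGDH-1 libraries, 545, 569.9 and 557 CPM in shUGDH-2 libraries and 601, 571 and 604 CPM in shNT libraries. For both genes the shUGDH-2 libraries lay below all shNT libraries, and the shUGDH-1 libraries overlapped shNT. NUF2 fell by 0.19 on the log2 scale (SE 0.052, edgeR adjusted p = 0.00683) and CENPF by 0.09 (SE 0.022, edgeR adjusted p = 0.00351). NUF2 did not pass with DESeq2, nor without shNT replicate 1 (-0.15) or shUGDH-2 replicate 1 (-0.16), and CENPF did not pass without shNT replicate 3 (-0.07) or shUGDH-2 replicate 1 (-0.07).

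The partners of NUF2 did not pass in either comparison. NDC80 had log2 fold changes of -0.004 and 0.03, SPC24 of -0.06 and -0.09 and SPC25 of -0.12 and -0.09 with shUGDH-1 and shUGDH-2. SPC24 and CENPA, both under 20 CPM, had the widest intervals of the 55. HJURP, the chaperone that loads CENPA, had log2 fold changes of 0.04 with shUGDH-1 and -0.06 with shUGDH-2.

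Condensin and chromosome genes included falls of TOP2A and NCAPG and a rise of MKI67 with shUGDH-1. TOP2A, the topoisomerase that untangles sister chromatids, stood at 694, 681 and 684 CPM in shUGDH-1 libraries, 661, 712 and 687 CPM in shUGDH-2 libraries and 746, 726 and 728 CPM in shNT libraries. All libraries of the UGDH hairpins lay below all shNT libraries. It fell with shUGDH-1 (-0.10 ± 0.021, edgeR adjusted p = 0.000391) and with shUGDH-2 (-0.09 ± 0.021, edgeR adjusted p = 0.000853), the second not without shUGDH-2 replicate 1 (-0.065).

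NCAPG, a condensin I subunit, stood at 161, 145 and 142 CPM in shUGDH-1 libraries, 154, 158 and 150.4 CPM in shUGDH-2 libraries and 171, 159 and 166 CPM in shNT libraries. The shUGDH-1 libraries overlapped shNT through replicate 1, and the highest shUGDH-2 library lay just below the lowest shNT library. It fell with shUGDH-1 (-0.15 ± 0.037, edgeR adjusted p = 0.00191). With shUGDH-2 it was near the threshold (-0.10 ± 0.036, edgeR adjusted p = 0.0469) and did not pass without shNT replicate 1 or 3, shUGDH-1 replicate 2 or 3, or shUGDH-2 replicate 1 or 3 (-0.07 to -0.10), nor with DESeq2 or limma-voom.

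SMC2, a core ATPase of both condensins, stood at 174, 179 and 169 CPM in shUGDH-1 libraries, 169, 178 and 172 CPM in shUGDH-2 libraries and 187, 185 and 182 CPM in shNT libraries. All libraries of the UGDH hairpins lay below shNT. It did not pass with shUGDH-1 (-0.08 ± 0.032, edgeR adjusted p = 0.0601) and passed with shUGDH-2 (-0.09 ± 0.031, edgeR adjusted p = 0.0352), though not with DESeq2 and not without shNT replicate 1 or 2 or shUGDH-2 replicate 1 or 3 (-0.07 to -0.09). With shUGDH-1, SMC2 passed as lower without shUGDH-1 replicate 2 (-0.10) and with scaling by library totals alone (-0.09). SMC4, NCAPD2 and NCAPH, the other condensin subunits measured, and CDCA2 had log2 fold changes of -0.05 to 0.03 and did not pass.

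MKI67, which encodes the proliferation marker Ki-67, the coat of mitotic chromosomes, had the most reads of the 55. It stood at 1409.9, 1446 and 1434 CPM in shUGDH-1 libraries, 1221, 1244 and 1250.5 CPM in shUGDH-2 libraries and 1235, 1287 and 1316 CPM in shNT libraries. Every shUGDH-1 library was above all 6 others, and the shUGDH-2 libraries overlapped the lowest shNT library. It rose with shUGDH-1 (0.16 ± 0.018, edgeR adjusted p = 2.95e-10). With shUGDH-2 it did not pass (-0.05 ± 0.018, edgeR adjusted p = 0.0809), but passed as lower when shNT replicate 1 was left out (-0.07).

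The chromosomal passenger complex, which corrects faulty attachments and starts cytokinesis, held level. BIRC5 (survivin), CDCA8 (borealin) and INCENP had log2 fold changes of 0.0030 to 0.07 with shUGDH-1 and -0.06 to 0.0079 with shUGDH-2, and none passed. For all 3 the 95% interval lay within 1.2-fold in both comparisons, a band that held 52.7% and 56.1% of all tested genes.

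Of the spindle and cytokinesis genes, TPX2 changed. TPX2, the activator of Aurora A on the spindle, stood at 658, 669 and 663 CPM in shUGDH-1 libraries, 686, 691 and 717 CPM in shUGDH-2 libraries and 705, 724 and 743 CPM in shNT libraries. The shUGDH-1 libraries lay below all 6 others and the shUGDH-2 libraries overlapped shNT. TPX2 fell with shUGDH-1 (-0.13 ± 0.021, edgeR adjusted p = 3.51e-06). With shUGDH-2 it did not pass (-0.05 ± 0.021, edgeR adjusted p = 0.0791), but passed as lower without shNT replicate 1 (-0.07) or shUGDH-2 replicate 3 (-0.07). PRC1, ANLN, ECT2, RACGAP1, NUSAP1, DLGAP5 and GTSE1, which bundle microtubules, position the cleavage furrow or act at the spindle, had log2 fold changes of -0.08 to 0.05 and did not pass.

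Among genes of anaphase and protein destruction, 1 of 5 rose with shUGDH-1, where 10.5% of all tested genes were called higher. None passed with shUGDH-2, where 8.04% of all tested genes were called higher and 6.81% lower. ESPL1, which encodes separase, the protease that opens cohesin at anaphase, stood at 94.4, 92.4 and 100.2 CPM in shUGDH-1 libraries, 92.3, 85.2 and 89.1 CPM in shUGDH-2 libraries and 85.1, 82.9 and 87.3 CPM in shNT libraries. The shUGDH-1 libraries lay above shNT and the shUGDH-2 libraries overlapped it. ESPL1 rose with shUGDH-1 (0.16 ± 0.043, edgeR adjusted p = 0.00312) and did not pass with shUGDH-2 (0.06 ± 0.043, edgeR adjusted p = 0.386). CDC20 and UBE2C, activator and ubiquitin-conjugating enzyme of the anaphase-promoting complex, PTTG1 (securin) and CDCA3 had log2 fold changes of -0.08 to 0.02 over both comparisons. PTTG1 shares sequence with PTTG2 and PTTG3P, so its counts are uncertain.

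FOXM1, the forkhead factor that drives transcription of many of these genes, was higher with either hairpin. It stood at 358, 365 and 365 CPM in shUGDH-1 libraries, 364, 356 and 367 CPM in shUGDH-2 libraries and 321, 353 and 334 CPM in shNT libraries. All 6 libraries of the UGDH hairpins lay above all shNT libraries. FOXM1 rose with shUGDH-1 (0.11 ± 0.026, edgeR adjusted p = 0.000891) and with shUGDH-2 (0.11 ± 0.026, edgeR adjusted p = 0.00165). MYBL2, the MYB factor of the MYB-MuvB complex, averaged 109 ± 1.74, 107 ± 5.83 and 101 ± 4.47 CPM in shUGDH-1, shUGDH-2 and shNT libraries (SD, n = 3 each) and did not pass (edgeR adjusted p = 0.0515 with shUGDH-1 and 0.223 with shUGDH-2). With shUGDH-1 it passed as higher with no low-count filter (0.11) and without shNT replicate 2 (0.14) or shUGDH-2 replicate 2 or 3 (0.11).

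Summed over role groups, the levels ranged as follows. The 5 checkpoint genes summed to 768 to 796 CPM in shUGDH-1, 724 to 748 CPM in shUGDH-2 and 786 to 833 CPM in shNT libraries, so shUGDH-2 lay apart from both other groups. The 8 condensin and chromosome genes summed to 3227 to 3263 CPM in shUGDH-1, 2993 to 3092 CPM in shUGDH-2 and 3146 to 3205 CPM in shNT libraries. Spindle and cytokinesis genes summed to 2589 to 2607, 2605.5 to 2639 and 2642 to 2694 CPM in the same order, with both UGDH hairpins below shNT. Kinesin and kinetochore sums lay below shNT with shUGDH-2 only, and sums of cyclins and mitotic kinases with shUGDH-1 only. Passenger complex and anaphase sums overlapped shNT with both hairpins. All 55 summed to 11875 to 11967 CPM in shUGDH-1, 11501 to 11715 CPM in shUGDH-2 and 11935 to 12084 CPM in shNT libraries. Without MKI67 the sums were 10441 to 10557 CPM in shUGDH-1, 10280 to 10465 CPM in shUGDH-2 and 10683 to 10768 CPM in shNT libraries, and both UGDH hairpins then lay below shNT. Sums follow the most counted genes and carry no test here.

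**Figure D3:**
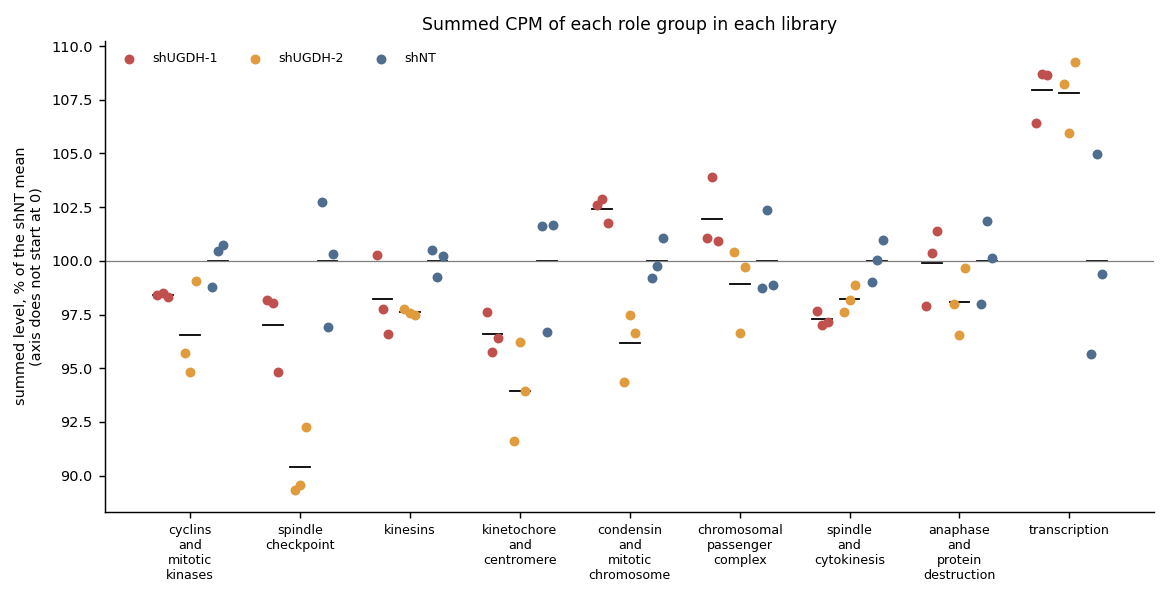
Summed CPM of each role group in each library (points), as a percentage of the shNT mean, with the group mean as a bar; the axis does not start at 0. The checkpoint genes of shUGDH-2 lie lowest, FOXM1 (the transcription group) lies above 100 with both UGDH hairpins, and most other points lie within a few percent of the shNT mean.

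Single libraries weighed on several of these calls. Without shNT replicate 1, 3 of the 55 were higher and 9 lower with shUGDH-1, where 9.01% of tested genes were called higher and 8.32% lower, and all 7 of the earlier falls were among the 9. With shUGDH-2, 1 was then higher and 9 lower, where 6.29% were called higher and 4.55% lower, and 6 of the earlier 11 falls were among the 9. Leaving out shUGDH-2 replicate 1 left 5 of those 11, namely CCNA2, BUB3, BUB1, CENPE and KIF11. CCNA2, CENPE and FOXM1 with either hairpin, MKI67, TPX2, MAD2L1, TOP2A, NCAPG and ESPL1 with shUGDH-1, and BUB3 and BUB1 with shUGDH-2 kept their calls whichever library was left out.

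**Figure D4:**
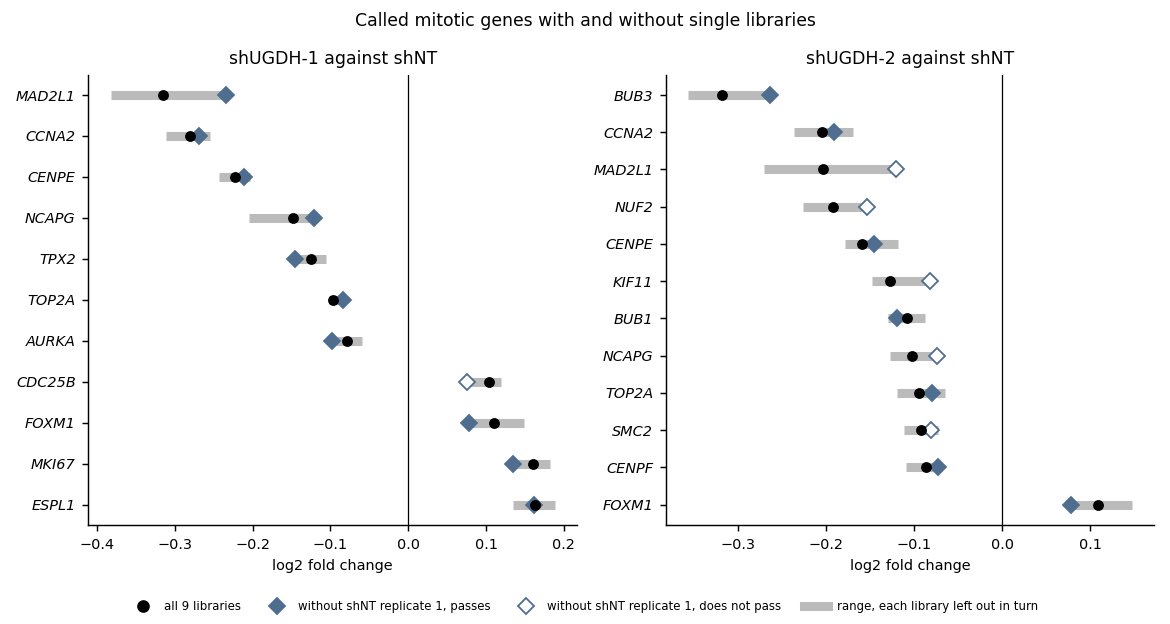
Log2 fold change of the mitotic genes that passed, with all 9 libraries (black point), without shNT replicate 1 (diamond, filled where the call was kept) and the range with each library left out in turn (grey bar), for shUGDH-1 against shNT on the left and shUGDH-2 against shNT on the right. All values keep their sign, and 1 of 11 calls with shUGDH-1 and 5 of 12 with shUGDH-2 are open diamonds.

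The hairpins were also set against each other. This contrast takes no shNT mean, but the shNT libraries enter the filter, the scaling and the shared estimate of spread. Of the 55 genes, 1 was higher and 3 were lower with shUGDH-2 than with shUGDH-1, where 5.36% of all tested genes were called higher and 5.51% lower. Without shNT replicate 1 the counts were 2 higher and 4 lower, where 6.56% and 6.3% of all tested genes were called. MKI67 averaged 1239 ± 15.5 CPM with shUGDH-2 and 1430.1 ± 18.5 CPM with shUGDH-1, BUB3 178 ± 3.16 and 214 ± 2.91 CPM, and BUB1 303 ± 9.01 and 332 ± 9.60 CPM, in the same order (SD, n = 3 each). These 3 genes were lower with shUGDH-2, with no overlap between libraries, by -0.21 ± 0.018 (edgeR adjusted p = 9.64e-14), -0.26 ± 0.033 (edgeR adjusted p = 1.4e-08) and -0.13 ± 0.026 (edgeR adjusted p = 0.000161). TPX2 averaged 698 ± 16.7 CPM with shUGDH-2 and 664 ± 5.49 CPM with shUGDH-1 and was higher with shUGDH-2 (0.07 ± 0.021, edgeR adjusted p = 0.0118), though not without shUGDH-1 replicate 1 (0.07) or shUGDH-2 replicate 3 (0.05), nor with DESeq2. For CCNA2 (95% interval 0.0087 to 0.14, edgeR adjusted p = 0.149), TOP2A (-0.04 to 0.04) and FOXM1 (-0.05 to 0.05) the hairpins did not differ past the threshold. CCNA2 passed as higher with shUGDH-2 without shUGDH-2 replicate 2 (0.11), and CENPF passed as lower without shNT replicate 1 or 2 or shUGDH-2 replicate 2 (-0.06 to -0.08). Libraries of the hairpins did not overlap for 4 genes higher and 14 lower with shUGDH-2, where 13.1% and 13.9% of all tested genes did not overlap. The median of the 55 was -0.029, against -0.0011 over all tested genes.

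Because the hairpins differ in sequence, the 3′ UTRs of the mitotic genes were searched for letters complementary to bases 2 to 8 of each labelled hairpin sequence. The UGDH hairpin sequences were read as guide strands, and full sites for them are present in 5 and 8 of 12 annotated UGDH transcripts. These guides are shown with bases 2 to 8 (the seed) in capitals.
shUGDH-1 guide: tTGCATCAaatatgcgacg
shUGDH-2 guide: aTATACTTcagatctgctg
No 3′ UTR of the 55 held the shUGDH-1 complement TGATGCA, which is present in 10.1% of 11062 tested genes with an annotated 3′ UTR. The shUGDH-2 complement AAGTATA was present in 6 of the 55, namely CCNA2, BUB3, MAD2L1, TTK, SMC2 and INCENP, against 13.8% of those genes. The labelled shNT sequence has 22 bases and no full site in UGDH, so whether it is the guide or the opposite strand could not be checked. The complement of its bases 2 to 8, AGCGAGA, was present in 1 of the 55, BUB3. It was present in 5.29% of tested genes with an annotated 3′ UTR. The sites of the 4 that passed as lower with shUGDH-2 are shown with the matching letters in capitals, from GENCODE release 29 transcripts.
CCNA2: gtaaatcactcaAAGTATAtggtgta
BUB3: tcagcaaatttcAAGTATAcaattca
MAD2L1: agggagatatttAAGTATAaaataca
SMC2: ctgtcaatattaAAGTATAccatagt
MAD2L1 holds a further match, and BUB3 and MAD2L1 have long 3′ UTRs of 6632 and 4510 bases, against a median of 620 bases over the 55.

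Not every gene with a match fell. TTK and INCENP, which carry the letters, had log2 fold changes of -0.02 and 0.0079 with shUGDH-2, and CCNA2 and MAD2L1 fell with shUGDH-1 as well, whose seed complement they lack. Over all tested genes, 11.4% of those with AAGTATA in the 3′ UTR were called lower with shUGDH-2, against 6.45% of those without, and the genes with a match had longer 3′ UTRs (median 3104.5 bases, against 970 bases without). For the shUGDH-1 letters, 15.0% of genes with a match were called lower with shUGDH-1, against 10.1% without. Here too the genes with a match had longer 3′ UTRs (median 3086 bases, against 1017 bases without). Whether any match acts in these cells was not tested. For the promoter letters, with shUGDH-2 the median log2 fold change was -0.046 for the 35 genes with TTTGAA in the window and -0.051 for the 11 without.

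Levels per transcript length ordered the 55 genes over more than an order of magnitude. In CPM per kilobase of 1 principal transcript per gene, UBE2C was highest at 266 ± 0.428 in shUGDH-1, 271 ± 6.26 in shUGDH-2 and 281 ± 13.6 in shNT libraries (SD, n = 3 each). TPX2, ANLN and PTTG1 followed at 207 ± 5.53, 159 ± 2.87 and 144 in shNT libraries, each apart from the next by more than their SDs. CDC20, TOP2A, PRC1, AURKA and CCNB1 came next at 131 to 121 in shNT libraries, and neighbours in that run lay within their SDs. MKI67, first by reads, was twelfth per length, at 101 in shNT libraries. At the low end, MAD2L1, ESPL1, CDC25C, KIF15 and CENPA each lay within the SDs of its neighbour in that run, at 14.4 to 11.8, and SPC24 was lowest at 8.30. These lengths are of 1 transcript per gene in GRCh38, so genes that use other isoforms are displaced in the order.

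**Figure D5:**
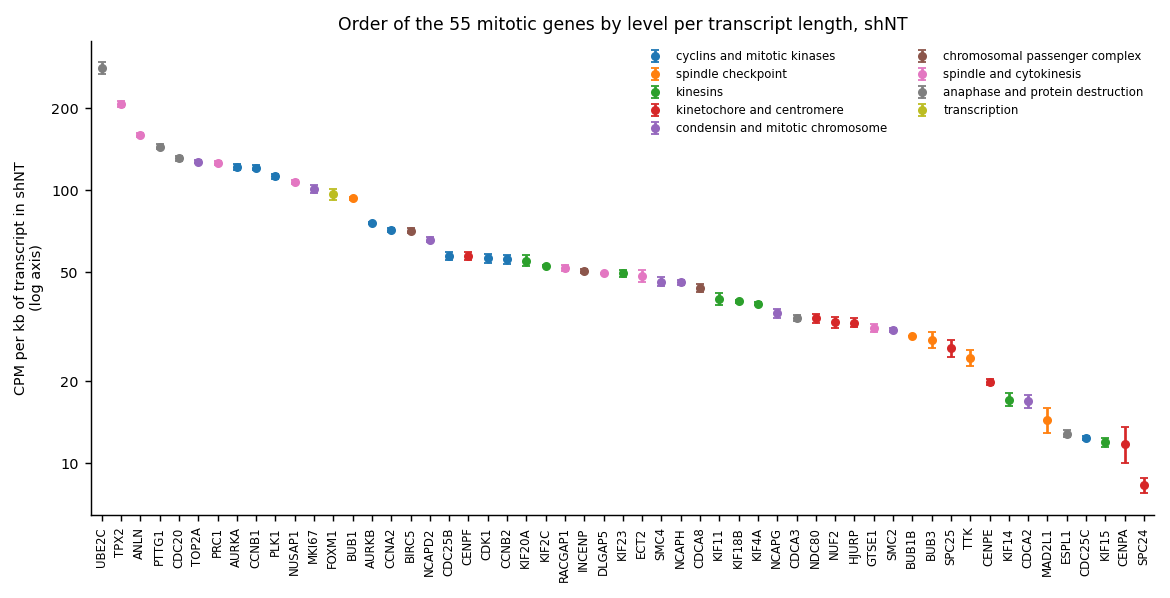
Mean level of each of the 55 mitotic genes in the shNT libraries in CPM per kilobase of transcript (log axis), ordered from high to low, with the SD of 3 libraries as bars and the role group as colour. UBE2C is highest at 281 and SPC24 lowest at 8.30, and no role group fills either end.

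Other genes of the same pathways were listed beside the 55. Of 207 such genes tested, 11 were higher and 34 lower with shUGDH-1, and 3 were higher and 30 lower with shUGDH-2, with median log2 fold changes of -0.035 and -0.047. Over all tested genes 10.5% were called higher and 10.3% lower with shUGDH-1, and 8.04% higher and 6.81% lower with shUGDH-2. These shares are the background for the count of each list below. Without shNT replicate 1 the lower counts were 21 with shUGDH-1 and 21 with shUGDH-2, where 8.32% and 4.55% of all tested genes were called lower. Of 31 further kinetochore genes, none was higher, 9 (29%) were lower with shUGDH-1 and 6 (19.4%) with shUGDH-2. Without shNT replicate 1 these counts were 5 and 3, as low as without shUGDH-1 replicate 2 for the first and without shUGDH-2 replicate 1 for the second. ITGB3BP (CENP-R), CENPP and CENPW had the largest falls that passed with shUGDH-1 (-0.37, -0.34 and -0.29), and none of these passed with DESeq2 or without shUGDH-1 replicate 2 (-0.35, -0.21 and -0.26). ITGB3BP also did not pass without shNT replicate 2 (-0.34) or shUGDH-1 replicate 1 (-0.31), nor CENPP without any 1 of the shNT libraries or shUGDH-1 replicate 3 (-0.33 to -0.345).

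Of 17 genes of cohesin, condensin II and chromatid separation, none rose with either hairpin, 6 (35.3%) were lower with shUGDH-1 and 2 (11.8%) with shUGDH-2. Without shNT replicate 1 the counts were 3 and 2, and the shUGDH-1 count was also 3 without shUGDH-1 replicate 3. The core cohesin ATPases moved apart. SMC1A averaged 390.5 ± 1.97, 443 ± 13.0 and 443 ± 3.61 CPM in shUGDH-1, shUGDH-2 and shNT libraries, and SMC3 271 ± 3.32, 238 ± 7.38 and 270.1 ± 6.43 CPM (SD, n = 3 each). SMC1A fell with shUGDH-1 (-0.18, edgeR adjusted p = 8.08e-09) and SMC3 with shUGDH-2 (-0.18, edgeR adjusted p = 9.69e-07), and both differed between the hairpins (shUGDH-2 over shUGDH-1, 0.18 for SMC1A with edgeR adjusted p = 1.18e-08, and -0.19 for SMC3 with edgeR adjusted p = 3.3e-07).

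Of 16 further kinesins and spindle motors, shUGDH-1 had 2 higher and 1 lower, and shUGDH-2 had 1 higher and 2 lower. The riser with shUGDH-2 was lost without shNT replicate 1 or shUGDH-2 replicate 3, and 1 fell without shUGDH-1 replicate 2 or any 1 of the shUGDH-2 libraries. KIF20B, a kinesin of cytokinesis, averaged 139 ± 1.84, 133 ± 3.90 and 162 ± 11.8 CPM in shUGDH-1, shUGDH-2 and shNT libraries (SD, n = 3 each) and fell with both hairpins (-0.22, edgeR adjusted p = 5.25e-06, and -0.29, edgeR adjusted p = 4.01e-08). NUMA1, which anchors the spindle poles, rose with shUGDH-1 (0.14, edgeR adjusted p = 2.13e-06). Its rise with shUGDH-2 (0.08, edgeR adjusted p = 0.0127) did not pass with DESeq2, nor without shNT replicate 1 (0.06) or shUGDH-2 replicate 3 (0.06).

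Of 20 further mitotic kinases and entry genes, shUGDH-1 had 1 higher and 2 lower, and shUGDH-2 had none higher and 5 lower (3 without shNT replicate 1). Only 1 fell with shUGDH-1 when any 1 of its own libraries was left out. PLK4, the kinase of centriole duplication, fell with shUGDH-1 (-0.25, edgeR adjusted p = 8e-05). Its fall with shUGDH-2 (-0.15, edgeR adjusted p = 0.027) did not pass with DESeq2 or without shNT replicate 1 or shUGDH-2 replicate 2 or 3 (-0.11 to -0.14). NEK2 and PBK fell with shUGDH-2 (-0.19 and -0.18, edgeR adjusted p = 0.00504 and 0.00268). Of 17 genes of the anaphase-promoting complex, 1 rose and 2 fell with each hairpin, and without shNT replicate 1 none was called lower with either hairpin. UBE2S, its chain-extending enzyme, rose with shUGDH-1 (0.14, edgeR adjusted p = 0.0029) and with shUGDH-2 (0.12, edgeR adjusted p = 0.0123), the second not without shUGDH-2 replicate 1 (0.08). Of 28 further spindle, centrosome and cytokinesis genes, shUGDH-1 had 3 higher and 2 lower, and shUGDH-2 had none higher and 3 lower. Without shNT replicate 1 these lower counts were 0 and 2, the second also without shUGDH-2 replicate 1. PSRC1, a microtubule regulator, rose with shUGDH-1 (0.17, edgeR adjusted p = 0.00434), and ARHGAP11A, a cytokinesis protein, fell with shUGDH-2 (-0.14, edgeR adjusted p = 0.00207). The fall of ARHGAP11A with shUGDH-1 (-0.10, edgeR adjusted p = 0.0255) did not pass with DESeq2 or without shNT replicate 1 or shUGDH-1 replicate 1 or 2 (-0.07 to -0.11).

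Upstream of mitosis, of 22 cell cycle transcription genes none rose, 5 were lower with shUGDH-1 and 1 was lower with shUGDH-2. RBL1, the pocket protein p107, averaged 87.6 ± 2.76, 100.2 ± 2.91 and 107 ± 0.772 CPM in shUGDH-1, shUGDH-2 and shNT libraries (SD, n = 3 each) and fell with shUGDH-1 (-0.29, edgeR adjusted p = 8.01e-08). NFYC, a subunit of the factor that binds CCAAT, fell with shUGDH-1 (-0.40, edgeR adjusted p = 3.3e-07) and did not pass with shUGDH-2 (0.08), and differed between the hairpins (shUGDH-2 over shUGDH-1, 0.48, edgeR adjusted p = 4.13e-09). E2F6, an E2F repressor, also fell with shUGDH-1 (-0.44, edgeR adjusted p = 0.000731). Of 45 replication and S phase genes, shUGDH-1 had 3 higher (6.67%) and 7 lower (15.6%), and shUGDH-2 had none higher and 8 lower (17.8%), or 5 lower without shUGDH-2 replicate 1. GINS3, of the replicative helicase, fell with shUGDH-1 (-0.38, edgeR adjusted p = 0.000128). Cyclin E1, the G1/S cyclin encoded by CCNE1, fell with both hairpins (-0.28, edgeR adjusted p = 0.0088, and -0.29, edgeR adjusted p = 0.00821), though with neither in DESeq2 and not with shUGDH-1 without its replicate 2 (-0.21).

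Of 11 genes of the CDK inhibitors and G1 cyclins, 1 rose with each hairpin, none fell with shUGDH-1 and 1 with shUGDH-2. The shUGDH-1 count of higher genes was 2 without shNT replicate 1, and the gene lower with shUGDH-2 was lost without shUGDH-2 replicate 1. The riser was CDKN1A, which encodes p21, an inhibitor of cyclin-dependent kinases. It averaged 177 ± 2.87, 167 ± 1.75 and 149 ± 5.42 CPM in shUGDH-1, shUGDH-2 and shNT libraries (SD, n = 3 each), with every library of a UGDH hairpin above every shNT library. It rose with shUGDH-1 (0.25, edgeR adjusted p = 1.18e-08) and with shUGDH-2 (0.17, edgeR adjusted p = 0.000138).

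The authors' deposited tables give their own fold changes for the same comparisons. At an adjusted p under 0.05, the authors' deposited table called 4 of the 55 higher and 5 lower with shUGDH-1, where it called 8.49% of genes higher and 7.68% lower. With shUGDH-2, the authors' deposited table called 1 higher and 7 lower, where it called 6.06% of genes higher and 4.17% lower. For CCNA2 the authors' deposited table gives log2 fold changes of -0.28 with shUGDH-1 and -0.20 with shUGDH-2.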

How the data were processed

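RNA of 9 cultures was sequenced, 3 for each hairpin. Per the labels' protocols, mRNA libraries made with a NuGen Ovation kit were sequenced paired-end on an Illumina NextSeq. Per the submitters' processing notes, STAR, DESeq, DESeq2 and the hg19 build were used; for versions, annotation and strand use, nothing is given in the sources used here. Raw counts per gene were deposited by the authors. The authors' deposited tables for each hairpin against shNT hold a mean normalized signal per gene, log2 fold changes with standard errors, and p-values with adjusted p-values.

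From the deposited counts, edgeR 4.0.16 in R 4.3.3 (quasi-likelihood test, robust, TMM factors, default low-count filter) was fitted to all 9 libraries with group as the only term. The fit left 6 residual degrees of freedom. Benjamini-Hochberg adjustment ran over all 12546 genes tested, and an adjusted p under 0.05 was called; all p-values are two-sided. Alternatives were DESeq2 1.42.0, limma-voom (limma 3.58.1), the test without robust fitting, other scaling and filtering, pairwise fits, leaving out each library, a replicate block, and removal of GC, length and expression trends. The procedure was tested on simulated data. Entries whose names had become dates (28, holding 0.232% of counts) were kept.

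Lengths and 3′ UTRs came from GENCODE release 29 (GRCh38) by symbol, 1 transcript per gene; no coordinate was moved between builds. The members and lists were chosen with earlier results of these data known. Named genes were members that passed in any comparison, with CCNB1, CDK1, PLK1, AURKA, FOXM1, MKI67, MYBL2, CDKN1A and CCNE1 whatever their result, and up to 3 genes of each further list with the largest changes that passed; of the last, mostly those that kept their call in every setting are given, a choice made after their values were seen. Depth of 9249738 to 13328002 counts gave the members 170 reads or more each.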

Additional observations from a re-analysis of the deposited data

Results flagged for a closer look

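Mitotic genes whose change differed between the UGDH hairpins in a direct test (edgeR's quasi-likelihood test, shUGDH-2 over shUGDH-1) were MKI67, with a log2 difference of -0.2072, BUB3, with -0.2616, BUB1, with -0.1309, and TPX2, with 0.0735. MKI67, BUB3 and BUB1 were lower in 3 of 3 shUGDH-2 libraries than in any shUGDH-1 library, and TPX2 was higher in 3 of 3. No explanation for these differences was tested.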

How the results depend on the processing

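Of 27 calls of mitotic genes over the 3 comparisons, 17 were kept in all 17 settings, 10 were lost in at least 1, and none was reversed. The number higher with shUGDH-2 than with shUGDH-1 was 1, against 0 with DESeq2 and 2 when only these groups were fitted. The cause was not tested. With single libraries left out it ran from 0 to 2, and the number lower with shUGDH-2 against shNT from 5 to 11. The median log2 fold change then ran from -0.0491 to -0.0308 for shUGDH-2 against shNT and from -0.0293 to -0.0138 between the hairpins. With GC, length and expression trends removed the shUGDH-2 median was -0.0168; with the replicate block and trends removed the medians were 0.0083 for shUGDH-1 and -0.0168 for shUGDH-2. Replicate numbers did not pair the libraries (r of -0.082 to 0.131 for same-numbered pairs), and the block left the counts at 4 and 7, 1 and 11, and 1 and 3, with medians of -0.0032, -0.0454 and -0.0298.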
